A study of Homo sapiens with 14 samples.

Results

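RH30-only sites are regions of open chromatin with an ATAC-seq peak among the 93488 strongest of every RH30 rhabdomyosarcoma library and no peak in any LHCN myoblast library. They numbered 1998, which is 6.27% of the 31887 regions open in all 10 RH30 libraries and a small part of the 203312 merged regions of the RH30 lists. To find them, each RH30 list was trimmed to its 93488 strongest peaks, the length of the shortest list, and the trimmed peaks were merged where they overlapped by 1 bp or more. A region was kept if every trimmed list had a peak in it and none of the 4 untrimmed LHCN lists overlapped it. The sites were thus chosen by the peak calls themselves, and their presence in RH30, their absence from LHCN and their strength in RH30 are descriptions with no test.

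In ATAC-seq the transposase Tn5 cuts accessible DNA and leaves adapters there, so that open chromatin is read out as peaks of sequenced fragments. RH30 is a line of alveolar rhabdomyosarcoma, a muscle-lineage cancer of the young that is driven in most cases by the fusion transcription factor PAX3-FOXO1, which RH30 carries. LHCN is an immortalised human myoblast line. The KDM4 enzymes, KDM4B among them, are demethylases that remove methyl groups from lysine 9 and lysine 36 of histone H3, and methylation of lysine 9 is a mark of closed chromatin. PAX3-FOXO1 is known to bind enhancers and to act with muscle transcription factors there. Sites with a peak in a tumour line and none in a myoblast line mark places where the peak lists of the lines differ, whatever the source of the difference.

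The series held 14 libraries in 7 groups of 2, each from 100000 cells. RH30 received 200 nM QC6352, a KDM4 inhibitor, or 0.1% DMSO as vehicle. In other cultures RH30 was transduced with shKDM4B-813 or shKDM4B-814, short hairpins against KDM4B, or with the control hairpin shCtrl. LHCN overexpressed PAX3-FOXO1 or carried an empty vector, and every treatment lasted 72 h. The promoter driving the fusion in LHCN is not given in the sources used here, each line is 1 genetic background, and the labels do not say whether the 2 libraries of a group came from separate cultures. The p-values thus refer to the scatter of these libraries alone, and that scatter could be technical. The lines were not checked against marker genes, because no gene annotation of the build of the files, hg19, was used here. All coordinates are hg19 and count from 1, and no site is assigned to a gene.

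The hairpin lists went against their labels. The authors' own peak names inside the lists labelled shKDM4B-813 read sh814, those inside the lists labelled shKDM4B-814 read shCtrl, and those inside the lists labelled shCtrl read sh813, for every peak of all 6 lists. The QC6352, DMSO and LHCN lists had names that matched their labels. Overlap with the DMSO lists, as the Jaccard index of regions (shared regions over all regions), averaged 0.528 for the libraries labelled shKDM4B-813, 0.568 for those labelled shKDM4B-814 and 0.444 for those labelled shCtrl, so the libraries labelled shCtrl were the least like vehicle-treated RH30. Which of the 2 namings holds was not settled from these files, and each hairpin comparison is given both ways. The choice of the sites does not depend on it, since all 10 RH30 lists entered alike.

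Most chromatin that was open throughout RH30 was also open in myoblasts. Of the 31887 regions open in all 10 RH30 libraries, 26797 (84.0%) had a peak in all 4 LHCN lists, and these shared regions serve below as the standard of comparison. A further 1347 (4.22%) had a peak in both PAX3-FOXO1 lists of LHCN and in neither vector list, against 108 (0.339%) with the reverse pattern. These regions are not among the 1998, which stayed without a peak in LHCN also when the fusion was expressed.

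The rule was strict, and its edge ran through many weaker sites. Without any LHCN peak there were 95268 regions with a trimmed peak in at least 1 RH30 list, and 53995 of them (56.7%) were seen in a single list. Just outside the rule on the RH30 side stood 1191 regions present in 9 of the 10 lists. In 514 of these (43.2%) the missing list did have a peak that was too weak for the trimmed list. The list most often missing was QC6352 replicate 1, in 293 regions. Just outside on the LHCN side stood 614 regions with a peak in exactly 1 LHCN list, 298 and 182 of them in the PAX3-FOXO1 libraries and 55 and 79 in the vector libraries. Those LHCN peaks were weak within their untrimmed lists. Their median percentile (the share of the list ranking below) was 15.8 and 15.7 with PAX3-FOXO1 and 9.33 and 8.37 with the vector. The RH30 percentiles described next refer to trimmed lists, so these values are not on the same scale.

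Strength is given as a within-list percentile, the share of the peaks of a trimmed list that rank below the strongest peak in the region, because the caller's own values depend on the background level of each library. The sites were of medium to high strength. The median site stood at 63.9 and 70.0 in the QC6352 libraries, against 69.5 and 68.0 with DMSO. It stood at 72.2 and 71.8 in the libraries labelled shKDM4B-813, at 75.2 and 74.1 in those labelled shKDM4B-814, and at 74.3 and 74.2 in those labelled shCtrl. In every library this was below the median of the shared regions, which lay between 80.2 and 83.2. Taking the lowest of the 10 percentiles for each site, the median was 37.2 for the sites and 17.5 for the regions present in 9 lists (over those 9). At the inner edge 137 sites had a lowest percentile under 5, and at the other end 49 sites (2.45%) stayed at 90 or more in all 10 libraries, against 8.58% of the shared regions.

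**Figure D1:**
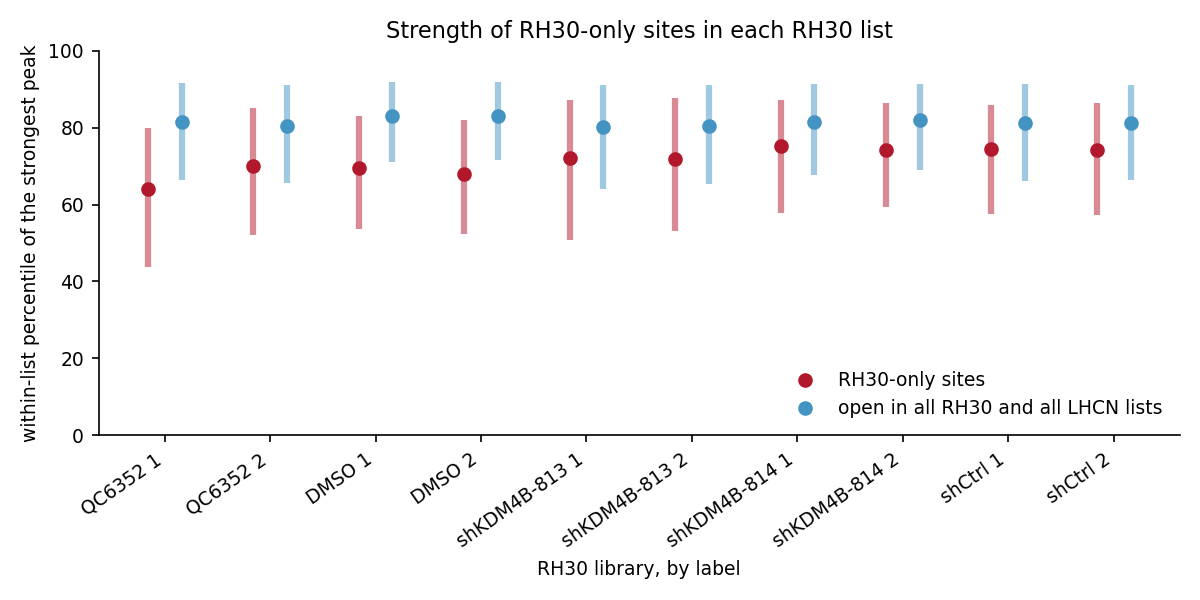
Within-list percentile of the strongest peak (0 to 100, vertical axis) in each of the 10 RH30 libraries, by label, for the 1998 RH30-only sites (red) and the 26797 regions open in all RH30 and all LHCN libraries (blue). Points are medians and bars span the middle 50% of regions; the red medians lie between 63.9 and 75.2 and below the blue ones in every library.

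The strength of a site varied more between libraries than that of a shared region. The range over the 10 libraries had a median of 46.5 percentile points for the sites and 30.6 for the shared regions, and it reached 50 points or more in 891 sites (44.6%) against 22.9% of the shared regions. Regions of middle rank have more room to move than those near the top of a list, and the part this plays was not tested. QC6352 replicate 1 was the lowest library at 459 sites, more than any other library, and the second library labelled shCtrl was the highest at 314. In bulk libraries, a weaker peak in every cell and a peak in fewer cells cannot be told apart.

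The strongest sites stood near the top of every list. Ranked by the lowest of the 10 percentiles, the first was chr11:70439512-70443619, a region of 4108 bp whose percentile lay between 99.1 and 99.8. The authors' fold over background there was 24.0 and 31.3 with QC6352, against 65.4 and 62.8 with DMSO. It was 66.9 and 52.1 in the libraries labelled shKDM4B-813 and 59.9 and 55.4 in those labelled shKDM4B-814, against 42.0 and 47.0 in those labelled shCtrl. Fold values are not comparable between lists, and the percentile shows a site at the top of its list each time.

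The strongest sites differed in shape and place. The second of the ranking, chr7:89309223-89309975, was a single peak of 753 bp in all 10 libraries, 56610 bp from the nearest LHCN peak, with percentiles of 98.8 to 99.8. The fourth, chr7:56441054-56441338, was only 285 bp wide and 1276 bp from an LHCN peak, with percentiles of 98.2 to 99.9. The fifth, chr12:24059216-24059666, was 451 bp wide and 454199 bp from the nearest LHCN peak. The others among the first 10 were chr10:56943427-56944162, chr2:83019264-83020122, chr15:94062845-94063832, chr6:51378473-51379840 and, beside the leading site, chr11:70449028-70452501 and chr11:70511963-70515750. Of the first 10, 3 thus fell within the same stretch of chromosome 11, where RH30 had 11.1 times as many peaks per megabase as LHCN in lists of equal length.

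The sites were narrower than shared regions. The strongest peak of a site, averaged over the 10 libraries, had a median width of 509 bp, against 644 bp for the shared regions, and the merged region had a median of 816.5 bp against 1090 bp. A single peak in every library made up 1335 sites (66.8%) and 58.7% of the shared regions. The position of the summit repeated well between libraries, with a median span of 87 bp over the 10 summits at the single-peak sites and 92 bp at single-peak shared regions. Wide regions were few in both sets, with 57 sites (2.85%) and 617 shared regions (2.30%) at 5000 bp or more, so at this end the sites were not the rarer. The widest, chr12:57415426-57447123, covered 31698 bp and was split into between 1 and 22 peaks depending on the library. The next were chr12:34483360-34499869 at 16510 bp, chr9:136661399-136676416 at 15018 bp, chr17:17461812-17476585 at 14774 bp and chr17:80037844-80052372 at 14529 bp.

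The sites were unevenly spread over the genome. On chromosome 21 they made up 14.5% of the regions open in all 10 RH30 libraries (52 of 359), and on chromosome 6 they made up 10.4% (175 of 1675). The share was 8.58% on X, 8.18% on chromosome 20, 7.84% on chromosome 17, 7.76% on chromosome 12 and 7.72% on chromosome 11. It was lowest on chromosomes 3 (3.12%) and 19 (3.24%). On a finer scale, 952 windows of 1 Mb held at least 1 site, of the 2737 windows with a region open in all 10 RH30 libraries, and the 19 windows with 10 or more sites held 308 of them (15.4%).

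Windows with many sites were windows where RH30 had many more peaks of any kind than LHCN. With all lists cut to equal length, the sites made up 1.44% of the regions open in all 10 RH30 libraries in windows with under 0.5 RH30 peaks per LHCN peak. The share was 2.50%, 5.04%, 7.04% and 7.99% in windows with ratios of 0.5 to 1, 1 to 1.5, 1.5 to 2 and 2 to 3. It was 22.2% (636 of 2867) in windows with a ratio of 3 or more, and 87.3% (145 of 166) in windows with no LHCN peak. The same LHCN lists enter both the ratio and the choice of the sites, so part of this rise is built in. Below, windows with a ratio of 3 or more or with no LHCN peak are called peak-rich; they held 781 sites, and the other windows held 1217. DNA copy number was not measured by these files, and its part in the peak-rich windows was not tested.

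**Figure D2:**
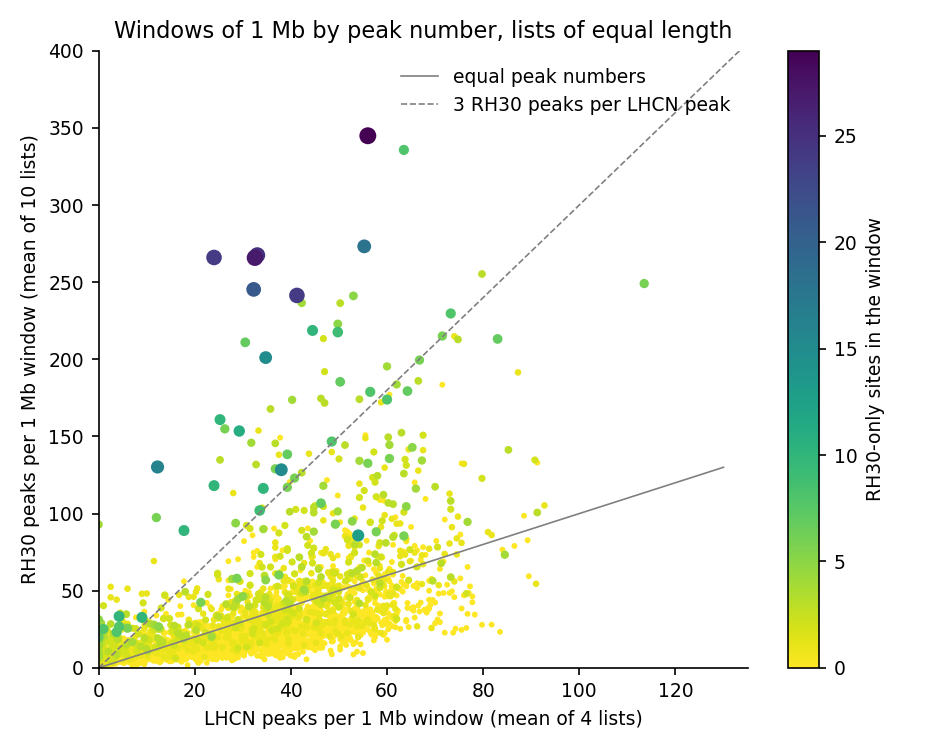
Each point is a window of 1 Mb, with the mean number of LHCN peaks over 4 lists on the horizontal axis and the mean number of RH30 peaks over 10 lists on the vertical axis, lists of equal length. Colour and size give the number of RH30-only sites in the window, up to 29; the windows with most sites lie above the dashed line of 3 RH30 peaks per LHCN peak.

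The 8 windows with most sites lay on 4 chromosomes. The first was chr12:58000001-59000000, where 29 of 65 regions open in all RH30 libraries were RH30-only sites and a mean of 344.9 RH30 peaks stood against 56 LHCN peaks. On chromosome 6, the 4 neighbouring windows between 71 and 75 Mb held 21 of 60, 27 of 64, 24 of 57 and 25 of 70, and chr6:68000001-69000000 held 16 of 25. The window chr11:70000001-71000000 held 24 of 51 and chr17:17000001-18000000 held 18 of 73. By share, among windows with at least 10 such regions, chr15:94000001-95000000 led with 8 of 10, then chr2:129000001-130000000 with 10 of 14. In contrast to the first 8, these 2 had few peaks in either line, with means of 23.2 and 32.7 in RH30 against 3.75 and 9 in LHCN. Some windows without LHCN peaks in the equal-length lists consisted wholly of sites, such as chr21:20000001-21000000 with 7 of 7 and chr5:30000001-31000000 with 6 of 6.

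Few sites lay close together. When sites were chained over gaps of up to 10000 bp, 1639 stood alone and 359 (18.0%) fell into clusters, 12 of which held 4 or more. The largest cluster had 8 sites within 16328 bp, at chr17:22244484-22260811. No site was removed here for lying in repeats, and the part of repeats in the clusters and the strongest sites was not tested. Clusters of 5 lay at chr6:74601092-74620811 and chr12:58028515-58055819, both in windows named above. Clusters of 4 included 3 on chromosome 6, at chr6:71302453-71338058, chr6:72494386-72513905 and chr6:73918222-73935927. The distance from a site to the nearest LHCN peak had a median of 5125.5 bp, and 376 sites were 50000 bp or more from any LHCN peak.

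Sites were not found more often than shared regions near the places where the fusion changed LHCN chromatin. Regions with peaks in both PAX3-FOXO1 lists and neither vector list of LHCN numbered 18704, and 234 sites (11.7%) had one within 10000 bp, against 14.5% of the shared regions. Regions with the reverse pattern numbered 20461, and 242 sites (12.1%) had one within that distance, against 22.7% of the shared regions. A site by its rule has no LHCN peak on it while a shared region has, so these shares describe position only and were not tested.

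With QC6352 the sites as a group did not shift beyond the spread between libraries, while individual sites rose or fell. The mean of the library medians was 67.0 ± 4.31 with QC6352 and 68.7 ± 1.02 with DMSO (SD, n = 2 each), a difference of −1.77 percentile points that is smaller than the SD of the QC6352 pair and became 1.28 without QC6352 replicate 1. With 2 libraries against 2, an exact permutation test cannot give a p below 0.33. Each region was therefore tested with limma on the normal score of its rank, fitted over all 31887 regions and all 10 RH30 libraries, with Benjamini-Hochberg adjustment and a limit of 0.05. The test found 158 sites higher with QC6352 (7.91%), where the background over all regions tested was 4.82%. It found 234 sites lower (11.7%), where the background was 11%. Over all windows together, the share that fell was close to the background and says nothing particular about these sites. The median difference was −0.04 normal-score units over the sites and −0.11 over the shared regions. The counts rest in part on the DMSO pair: the 392 sites changed in all became fewer when either DMSO library was left out. They were 59 when the 4 libraries of the comparison were fitted alone. The background over all regions was not tallied for these fits.

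The direction of the change with QC6352 went with the type of window. In peak-rich windows 87 of 781 sites rose (11.1%) and 43 fell (5.51%), with a median difference of 0.17 normal-score units. In the other windows 71 of 1217 rose (5.83%) and 191 fell (15.7%), with a median difference of −0.19. All regions open in every RH30 library did likewise. In peak-rich windows 299 of 3033 rose (9.86%) and 218 fell (7.19%). Elsewhere 1237 of 28854 rose (4.29%) and 3292 fell (11.4%). Within each type of window the share of sites that rose was thus nearer to that of all regions than over all windows together. The share of sites that fell was below that of all regions in peak-rich windows and above it elsewhere. The medians over the sites in peak-rich windows were 65.4 and 73.9 with QC6352, against 64.2 and 62.3 with DMSO. Those over the sites in other windows were 63.6 and 67.8 with QC6352, against 72.3 and 71.3 with DMSO, and in neither type of window did the QC6352 pair overlap the DMSO pair. In peak-rich windows, however, the DMSO pair was the lowest of the 5 pairs. The libraries labelled shCtrl stood at 74.9 and 74.4 there and those labelled shKDM4B-814, shCtrl by the peak names, at 74.8 and 72.7, so against the libraries labelled shCtrl the rise with QC6352 turns into a fall. In the other windows the QC6352 pair was below all 8 other libraries. The windows were chosen after the data were seen, and no test of the difference between the 2 types was made.

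**Figure D3:**
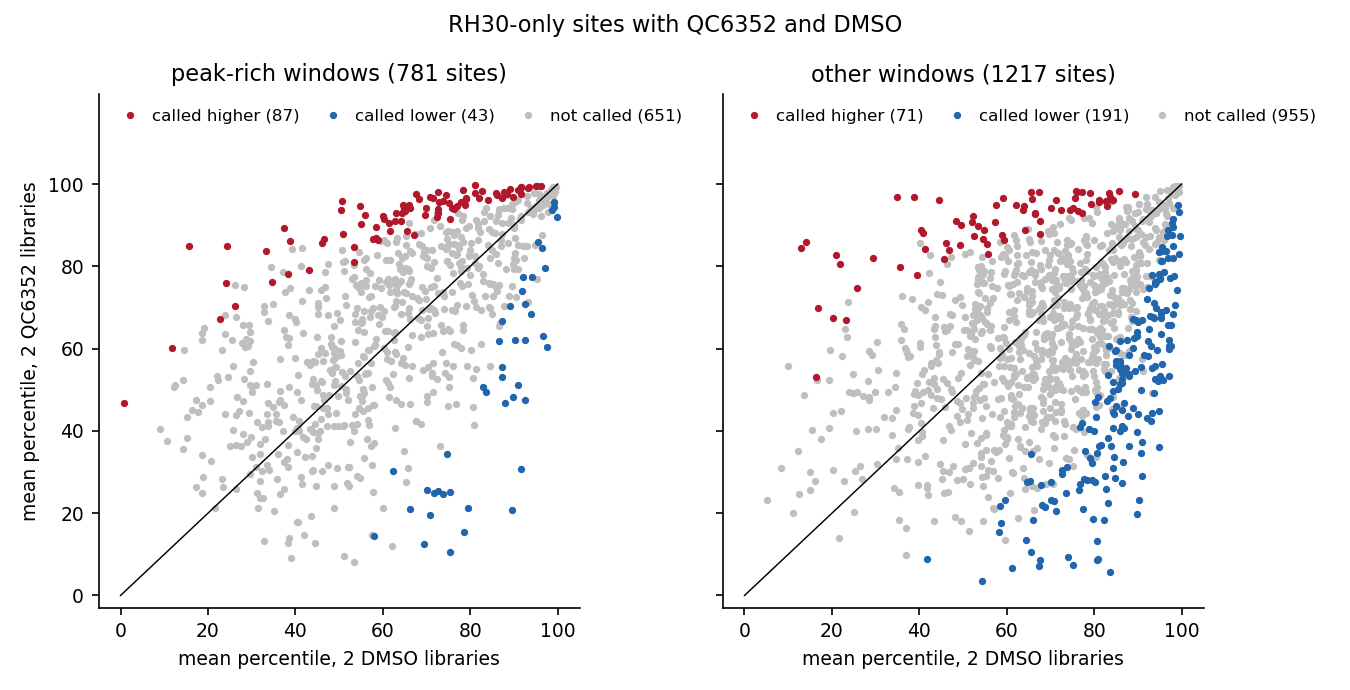
Mean within-list percentile with QC6352 (vertical axis, 2 libraries) against DMSO (horizontal axis, 2 libraries) for the 781 RH30-only sites in peak-rich windows (left) and the 1217 in other windows (right). Red sites were higher and blue sites lower with QC6352 at an adjusted p under 0.05 (limma): 87 and 43 on the left, 71 and 191 on the right; grey sites did not pass.

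Windows differed in how their sites moved. The 29 sites of chr12:58000001-59000000 had medians of 89.4 and 89.96 with QC6352, against 64.5 and 70.0 with DMSO. The 18 sites of chr17:17000001-18000000 had 74.7 and 73.5 with QC6352, against 61.9 and 63.0 with DMSO. In both windows each QC6352 library lay above each DMSO library. The libraries labelled shCtrl were high in both as well, at 83.4 and 83.3 on chromosome 12, below the QC6352 pair, and at 82.1 and 83.1 on chromosome 17, above it. In the windows of chromosome 6 the QC6352 pair straddled or fell below the DMSO pair, for example 43.9 and 69.1 with QC6352 against 54.6 and 53.6 with DMSO at chr6:68000001-69000000, and 37.1 and 42.8 with QC6352 against 45.4 and 43.7 with DMSO at chr6:72000001-73000000.

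The largest changes spanned most of the percentile scale. At chr12:10453606-10454248 the strongest peak stood at 86.3 and 85.6 with QC6352, against 15.9 and 12.2 with DMSO, a difference of 2.16 ± 0.31 normal-score units (SE) with an adjusted p of 3.64e-04 (limma). At chr4:21014335-21015434 it stood at 97.2 and 96.3 with QC6352, against 45.7 and 24.0 with DMSO, with an adjusted p of 9.93e-05 (limma). The first site was thus of low rank with the vehicle and of upper rank with the inhibitor, and the second went with the inhibitor to a percentile above 90. At these sites the libraries labelled shCtrl stood at 22.0 and 36.7, then 37.0 and 39.6. Those labelled shKDM4B-813 (85.1 and 91.3, then 91.4 and 90.04) and shKDM4B-814 (80.5 and 75.5, then 79.1 and 78.7) stood above them. By the peak names, however, the libraries labelled shKDM4B-814 carry the control hairpin and those labelled shCtrl carry sh813. On that reading the control hairpin, too, stood above DMSO at both sites, and sh813 was below the control hairpin. The other 3 of the 5 largest rises were chr20:15467479-15468974, with 78.4 and 90.4 with QC6352 against 7.08 and 18.9 with DMSO, chr17:72277661-72279592 and chr17:11608083-11608865. At these 3, too, both QC6352 libraries lay above both DMSO libraries. At the site on chromosome 20 the DMSO libraries stood apart, with the 6 hairpin libraries between 56.0 and 93.6 and those labelled shCtrl at 75.02 and 77.4. Against the libraries labelled shCtrl the difference there was 0.33 in place of 2.22, with an adjusted p of 0.489 (limma), and at chr17:11608083-11608865 it was 0.90 in place of 1.79, with an adjusted p of 0.0547 (limma).

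Among the sites that fell, chr10:79190846-79191443 stood at 7.96 and 3.45 with QC6352, against 81.6 and 85.4 with DMSO, a difference of −2.59 ± 0.27 normal-score units (SE) with an adjusted p of 5.56e-05 (limma). All 6 hairpin libraries were high there, between 77.8 and 89.9. At chr10:56668842-56669916, in a peak-rich window, the values were 27.5 and 13.997 with QC6352, against 91.7 and 87.6 with DMSO, and at chrX:128902597-128903374 they were 12.9 and 26.9 with QC6352 against 87.2 and 92.4 with DMSO. In these 3 sites the QC6352 libraries alone were low among the 10. The remaining ones of the 5 largest falls were chr15:81019468-81020397, with 16.0 and 1.11 with QC6352 against 83.4 and 77.8 with DMSO, and chr2:45199542-45200846, with 0.570 and 17.2 with QC6352 against 77.6 and 83.9 with DMSO. At the site on chromosome 15 the 6 hairpin libraries stood between 67.6 and 91.6, so there too the QC6352 libraries alone were low. At the site on chromosome 2 all 6 hairpin libraries were below the DMSO pair, with 44.2 and 52.6 in those labelled shKDM4B-813, 12.3 and 25.3 in those labelled shKDM4B-814 and 58.4 and 31.4 in those labelled shCtrl. Against the libraries labelled shCtrl the difference there was −1.60 in place of −2.61 and did not pass, with an adjusted p of 0.0678 (limma).

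**Figure D4:**
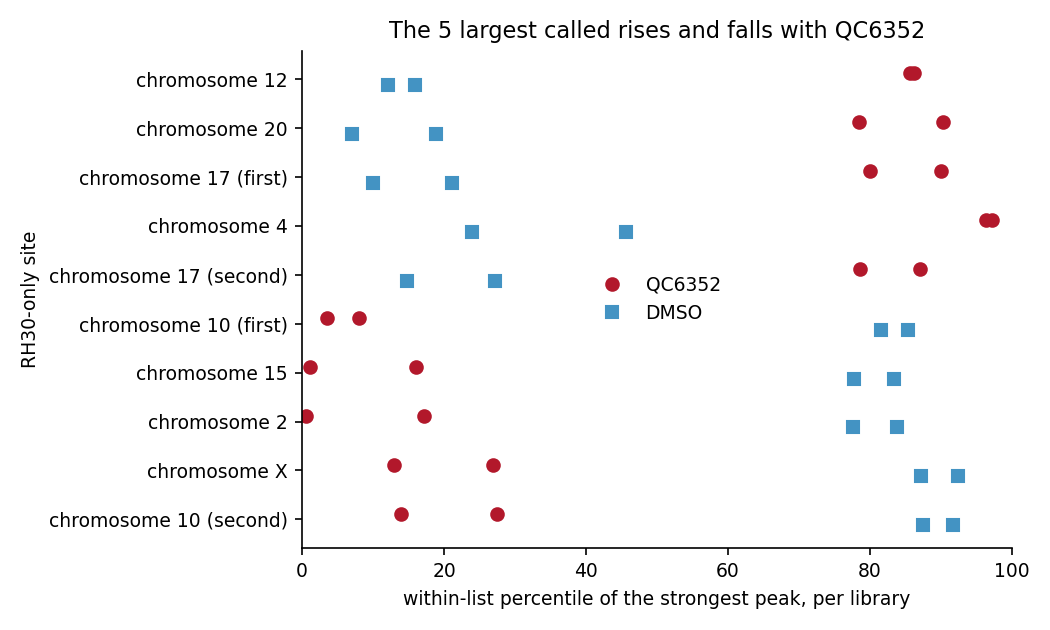
Within-list percentile (horizontal axis) in each QC6352 library (red circles) and each DMSO library (blue squares) at the 5 RH30-only sites with the largest rise (top) and the 5 with the largest fall (bottom), ordered by the size of the change and named by chromosome. At every one of the 10 sites the 2 pairs of libraries do not overlap, which the choice of the largest changes makes likely.

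Presence in the lists was compared as well, without the condition of a peak in all 10 lists. Among regions without an LHCN peak, 9388 had a trimmed peak in both QC6352 libraries and 9994 in both DMSO libraries. Of the DMSO ones, 37.8% were present in both QC6352 libraries, against 76.4% of the regions with a peak in all 4 LHCN lists. Present in both QC6352 and neither DMSO library were 4107, and the reverse held for 3868. Libraries of the other experiment differed from DMSO as well. Of the same 9994 DMSO regions, 42.5% were in both libraries labelled shCtrl and 55.5% in both labelled shKDM4B-814, shCtrl by the peak names. Present in both libraries labelled shCtrl and neither DMSO library were 8231, with 3673 in reverse. By the labels, the controls of the 2 experiments thus shared little more of the DMSO regions than QC6352 did; by the peak names they shared more. Regions with and without LHCN peaks were not matched for strength, and the part of strength in the difference between them was not tested.

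By the labels, more sites passed the test for shKDM4B-813 than for shKDM4B-814. The mean of the library medians was 72.0 ± 0.269 in the libraries labelled shKDM4B-813 and 74.3 ± 0.0745 in those labelled shCtrl (SD, n = 2 each), a difference of −2.24 percentile points. In the libraries labelled shKDM4B-814 it was 74.7 ± 0.789, a difference of 0.398 points that is within its SD. The median of the shared regions was 80.2 and 80.4 in the libraries labelled shKDM4B-813, against 81.3 and 81.1 in those labelled shCtrl. For shKDM4B-813 the median difference was −0.026 normal-score units over the sites and −0.054 over the shared regions. The 2 hairpin comparisons share the shCtrl libraries. For shKDM4B-813, limma found 179 sites higher (8.96%), where the background was 4.13%, and 98 lower (4.90%), where the background was 2.54%. Over all windows together both shares lay above the background. In peak-rich windows 58 of 781 sites were lower (7.43%), which was not above the 7.58% of all regions there. In the other windows 40 of 1217 were lower (3.29%), against 2.01% of all regions. The share of sites that were higher was above that of all regions in both types of window. The part of window type in these shares was not tested. The total of 277 rested on both members of each pair: it fell when any library of the comparison was left out, most of all one labelled shKDM4B-813. The background over all regions was not tallied for those fits. For shKDM4B-814, limma found 11 sites higher (0.551%), where the background was 0.0815%, and 1 lower, where the background was 0.00627%. At an unadjusted p under 0.05 254 sites were higher (12.7%), where the background was 8%, and 162 were lower (8.11%), where the background was 4.14%. The total of 12 did not hold when either library labelled shKDM4B-814 was left out, and it rose without the first library labelled shCtrl. No background was tallied for these fits either.

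Taken by the peak names, the same libraries gave another picture. The comparison of sh813 with shCtrl then sets the libraries labelled shCtrl over those labelled shKDM4B-814, which turns the second comparison round. It had 1 site higher, where the background was 0.00627%, and 11 lower, where the background was 0.0815%, and its difference of the medians was −0.398 points. The comparison of sh814 with shCtrl sets the libraries labelled shKDM4B-813 over those labelled shKDM4B-814. It had 0 sites higher, where the background was 0.00314%, and 0 lower, where the background was 0.00627%, and its difference of the medians was −2.64 points. At an unadjusted p under 0.05 (limma), 147 sites were higher (7.36%), where the background was 4.32%, and 172 were lower (8.61%), close to the background of 7.37%. By either naming, the comparison with many changed sites is the one between the libraries labelled shKDM4B-813 and those labelled shCtrl, which by the peak names is between 2 hairpins against KDM4B.

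**Figure D5:**
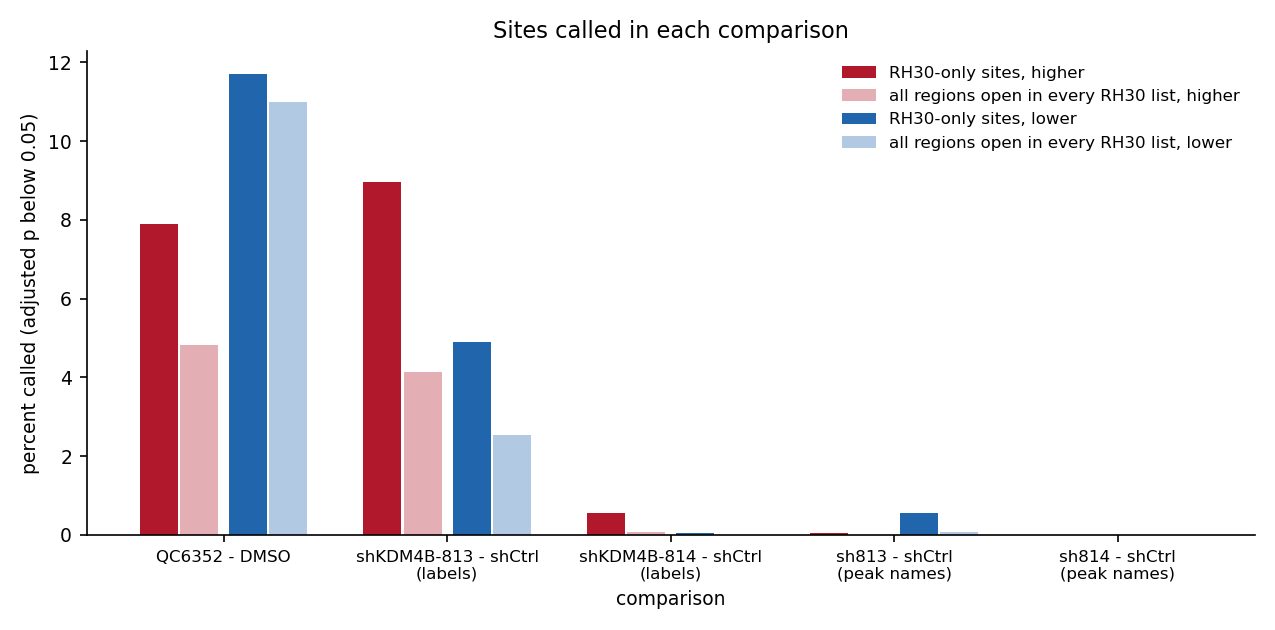
Percent of the 1998 RH30-only sites (dark bars) and of all 31887 regions open in every RH30 list (light bars) that were higher (red) or lower (blue) at an adjusted p under 0.05 (limma) in each comparison, with the hairpin groups by the labels and by the peak names. QC6352 has 7.91% higher and 11.7% lower among the sites; the hairpin comparisons by the peak names have next to none.

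The largest rises by the labels were at sites that were low in the libraries labelled shCtrl. At chr11:20913617-20914383 the values were 83.9 and 90.4 in the libraries labelled shKDM4B-813 and 90.9 and 76.9 in those labelled shKDM4B-814, against 9.03 and 15.3 in those labelled shCtrl. The difference for shKDM4B-813 was 2.33 ± 0.32 normal-score units (SE) with an adjusted p of 2.10e-03 (limma). With QC6352 this site stood at 80.8 and 95.5, against 72.9 and 68.9 with DMSO, so the libraries labelled shCtrl were the lowest of the 10. The same held at chr11:20283053-20283621, with 95.4 and 95.2 in the libraries labelled shKDM4B-813 and 85.1 and 87.6 in those labelled shKDM4B-814, against 9.04 and 37.3 in those labelled shCtrl. Both sites were among the 5 largest rises by the labels in both hairpin comparisons. By the peak names they are sites where sh813 was low, with a difference from shCtrl of −2.22 and −1.93.

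The other large rises labelled shKDM4B-813 were chr4:104336911-104337366, chr5:19314844-19315395 and chr15:53615184-53615700. The last of these stood at 98.0 and 98.0 in the libraries labelled shKDM4B-813 and 92.2 and 88.1 in those labelled shKDM4B-814, against 49.6 and 13.2 in those labelled shCtrl. The largest fall was chr1:205637711-205640840, a site of 3130 bp, with 1.07 and 5.06 in the libraries labelled shKDM4B-813, against 74.6 and 84.9 in those labelled shCtrl. The libraries labelled shKDM4B-814 were at 67.4 and 51.5 there, so the libraries labelled shKDM4B-813 stood apart. The other large falls, chr9:139493170-139495209, chr17:79287249-79290764, chr17:73475882-73478277 and chr9:138868062-138869609, all lay in peak-rich windows. At chr17:73475882-73478277 the libraries labelled shKDM4B-813 stood at 11.4 and 27.7, against 86.4 and 86.8 in those labelled shCtrl. The DMSO libraries stood at 14.5 and 9.98 there, so the libraries labelled shCtrl were high and those labelled shKDM4B-813 were not below the vehicle. Against DMSO, chr9:139493170-139495209 differed by −1.08 (adjusted p of 0.382, limma) and chr9:138868062-138869609 by −1.46 (adjusted p of 0.139, limma), so neither passed. The fall at chr17:79287249-79290764 did pass against DMSO, with −1.70 and an adjusted p of 0.00486 (limma).

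For shKDM4B-814 the remaining large rises by the labels were chr14:40887014-40887419, chr1:103659564-103660060 and chr18:40026106-40026613. The first stood at 83.8 and 73.7 in the libraries labelled shKDM4B-814, against 7.38 and 13.8 in those labelled shCtrl, and the vehicle libraries were at 69.4 and 49.0. The single fall was chr7:56441054-56441338, one of the 10 strongest sites, with 98.6 and 98.3 in the libraries labelled shKDM4B-814, against 99.9 and 99.9 in those labelled shCtrl. That difference of −0.95 ± 0.16 normal-score units (SE, adjusted p of 0.0439 by limma) corresponds to −1.43 percentile points, at the very top of the lists.

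The libraries labelled shCtrl also held the most RH30 regions without an LHCN peak. These made up 19.1% to 27.9% of the regions of the trimmed lists in the other 8 RH30 libraries, against 36.6% and 36.5% in those labelled shCtrl. Of the 14433 such regions in both libraries labelled shCtrl, 23.8% were in both libraries labelled shKDM4B-813 and 32.0% in both labelled shKDM4B-814. By the peak names, 57.8% of the 9286 such regions of the shCtrl lists were in both sh814 libraries and 49.7% in both sh813 libraries.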

How the data were processed

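The 14 ATAC-seq libraries were deposited as peak lists, 1 per library. The submitters' processing notes name MACS2 2.1.1, SAMtools 1.3.1, Picard 1.65 and BWA 0.7.12-r1039, with hg19; the sources used here do not give settings or any Tn5 shift. The authors deposited a fold over background (a ratio) for each peak, used to describe peaks within a list. The authors' −log10 q ranked them; fold gave the same order in all 14 lists. The deposited −log10 p and score were not used. Sequencing depth is unknown; RH30 lists held 93488 to 176899 peaks and LHCN lists 170390 to 175594, with the lowest −log10 q at 2.00 to 2.60.

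From these, percentiles, normal scores and limma 3.58.1 (R 4.3.3, 5 RH30 groups in 1 fit, eBayes with trend) were computed over all 31887 regions, after testing on simulated data. Sites named were the 10 with the highest lowest percentile, the 5 widest, and per comparison and direction the 5 largest changes past the limit; windows, the 8 with most sites and those with the largest share. The sites, lists and tests were chosen with earlier results of these data known. Peak-rich windows, grouping by peak names and a crossed block were added after seeing the data, as was the gap of 10000 bp for clusters (a somewhat wider gap, tried first, joined more sites). Gene lists and motifs were not analysed here, for want of an hg19 annotation. Replicate numbers were not used to pair the libraries in the main fit.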

Additional observations from a re-analysis of the deposited data

How the results depend on the processing

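The number of sites, 1998, was 788 with the 50000 strongest peaks per list, 846 at a −log10 q of 10 or more, 595 where peaks had to cover 50% of the region, 4231 with trimmed LHCN lists and 1217 outside peak-rich windows. It ranged from 2028 to 2312 without each library in turn. Leaving out a library removes a condition of the rule, so this rise was largely built in. The median width was 816.5 bp for merged regions and 391.9 bp for the sites covered to 50%. The change of the median percentile with QC6352 was −7.30 against the libraries labelled shCtrl and −6.14 outside peak-rich windows. That labelled shKDM4B-813 was 2.35 with the 50000 strongest peaks, 3.29 against DMSO, −1.69 outside peak-rich windows and −0.398 by the peak names. That labelled shKDM4B-814 was 2.36, 5.93, 1.29 and −2.64 under the same 4 settings, so neither hairpin direction held throughout. Sites changed with QC6352 numbered 59 in a fit of the 4 libraries alone and 124 to 519 without each library in turn. Those for shKDM4B-813 numbered 86 on percentile points, 416 in a fit of 4 libraries, 133 outside peak-rich windows, 12 by the peak names and 13 to 157 without each library. Those for shKDM4B-814 numbered 0 on percentile points (limma; 11 higher and 1 lower on normal scores), 0 without a trend, 32 against DMSO, 0 by the peak names and 0 to 42 without each library.

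Same-numbered libraries deviated with a correlation of −0.201 for QC6352, 0.0186 for shKDM4B-813 and 0.0526 for shKDM4B-814. With 2 libraries per group the deviations mirror each other, so these values do not settle how the libraries were paired. With a replicate block 357, 209 and 12 sites changed, and with the crossed block for QC6352 440. Apart from the grouping by peak names and the types of window, the share over all regions was not tallied under the alternatives. These counts thus do not compare the sites with other regions.

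Against DMSO, chr17:73475882-73478277 labelled shKDM4B-813 turned to 0.27. By the peak names, the 5 named rises for shKDM4B-813 turned to −2.22, −1.93, −1.76, −1.34 and −1.86, and the 5 falls to 0.60, 1.42, 0.36, 1.60 and 0.87. For shKDM4B-814, chr14:40887014-40887419 turned to −0.24, chr1:103659564-103660060 to −0.59 and chr7:56441054-56441338 to 0.19. Of the values under the alternatives at the named shKDM4B-813 sites, 86 kept direction and call, 22 lost the call and 11 turned. At the named shKDM4B-814 sites 30 kept both, 41 lost the call and 3 turned. For the named QC6352 sites, 114 values under the alternatives kept direction and call, 9 lost the call and 0 turned. The values ranked by fold or taken outside peak-rich windows repeat the main fit, so they were bound to keep it. The sites were also chosen as the largest called changes. The causes of the lost calls and turns were not tested. Read depth is unknown, so a missing peak means only that none passed the caller's limit.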
